A study of Mus musculus with 6 samples.

Results

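The receptors examined here were those through which peptides, melatonin and serotonin act on neurons of the suprachiasmatic nucleus (SCN), the hypothalamic clock. Of 9 receptor genes named by symbol (Vipr1, Vipr2, Adcyap1r1, Avpr1a, Grpr, Prokr2, Mtnr1a, Htr7 and Npy1r), 8 had a probe set on the arrays, with 12 probe sets among 22626 in all. No probe set carried the symbol of Prokr2, the prokineticin receptor, and that gene was not analysed here. SCN tissue was taken by laser capture from adult male C57BL/6 mice aged 2 to 4 months and kept in a 14:10 light/dark cycle. Mice received either a light pulse of 2400 lux for 30 minutes or a sham light pulse of the same length in darkness, each starting 1 hour after lights off, and tissue was collected when the pulse ended. Each group had 3 arrays, each array held RNA pooled from 3 mice (18 sections of 12 μm), and the labels give no allele or drug for either group. Pools of the groups are named sham pools and light pools here. The sources used here do not say whether pools of the same group share mice, and a p-value reflects only how far these pools vary.

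SCN neurons signal to each other with peptides, and most of the receptors that read these peptides couple to G proteins. Vasoactive intestinal polypeptide (VIP) from the retinorecipient part of the nucleus acts mainly on the receptor encoded by Vipr2 and helps to keep the single-cell clocks in step, while vasopressin and gastrin-releasing peptide act on the products of Avpr1a and Grpr. Inputs from outside also arrive through G protein-coupled receptors. Pituitary adenylate cyclase activating peptide (PACAP) comes with the glutamate of retinal fibres and acts on the product of Adcyap1r1. Serotonin comes from the raphe and neuropeptide Y from the intergeniculate leaflet. Melatonin is a hormone of the pineal gland, and whether it reached the SCN of these mice was not tested. The question put to the data was which of these receptor transcripts gave a signal above the floor of the arrays, and whether any differed at the end of the light pulse.

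Of the 8 measured receptor genes 4 lay above the floor, where 6739 of all 12393 genes with a probe set of 1 symbol did. The floor was taken as a signal of 118.2, the lowest third-ranked signal over the 6 arrays among the probe sets kept for testing, and a probe set was kept when at least 3 arrays reached it. Vipr2, Avpr1a, Mtnr1a and Grpr were kept, with 5 probe sets between them. For Vipr1, Adcyap1r1, Htr7 and Npy1r no probe set was kept. With a floor set by the highest signal of Npy, Hcrt, Th and Tph1 on any array (159.8), transcripts of neurons that project to the SCN and not of the SCN itself, Grpr dropped out and 3 genes were left. Signals of different probe sets do not share a common scale, so their order is not an order of transcript abundance. Because the SCN was captured as tissue, a lower signal could come from fewer cells of a type or from less RNA per cell, and these cannot be told apart.

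**Figure D1:**
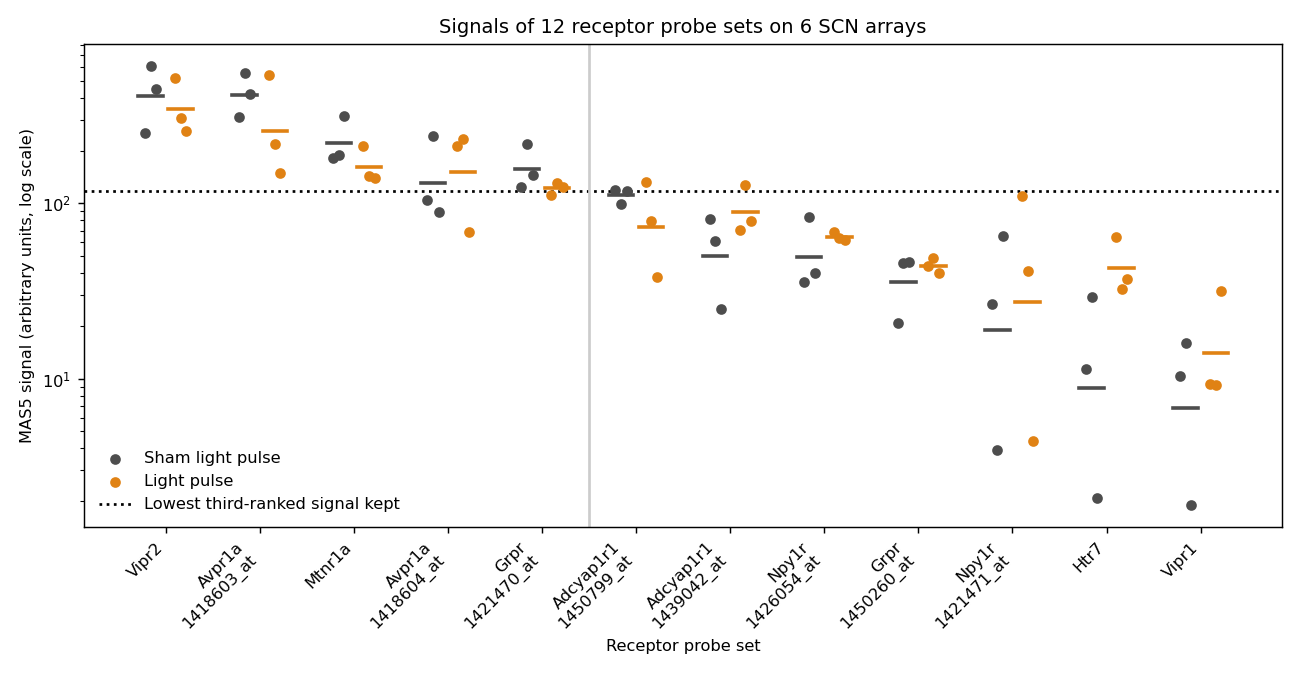
MAS5 signal in arbitrary units (log axis) of the 12 receptor probe sets, with 1 point per array, 3 in each group. Horizontal bars are geometric means, the dotted line is the floor of 118.2, and the vertical grey line separates the 5 kept probe sets on its left from the 7 that were not kept.

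The DNA ahead of 3 of the 4 kept receptor genes is shown, since the study asked whether genes that respond to light share cAMP response elements. The study searched longer stretches, counted back from the start codon, for predicted elements conserved across mammals. Here exact letters were matched in mouse alone and counted from the RefSeq start, so positions and matches are not comparable with the study's. The stretches of 250 bases end at the base before the annotated start (RefSeq, GRCm38.p6) and are written 5′ to 3′ on the strand of the gene, with capitals on matches, on either strand, to TGACG (the core of the cAMP response element), CACGTG (the E-box bound by clock proteins) or TATAAA (the TATA box). Avpr1a lies at chr10:122448249-122448498 on the plus strand, Grpr at chrX:163549737-163549986 on the minus strand and Mtnr1a at chr8:45068857-45069106 on the plus strand. Fos, at chr12:85473640-85473889 on the plus strand, is given as a gene that rose after the light pulse.
Avpr1a: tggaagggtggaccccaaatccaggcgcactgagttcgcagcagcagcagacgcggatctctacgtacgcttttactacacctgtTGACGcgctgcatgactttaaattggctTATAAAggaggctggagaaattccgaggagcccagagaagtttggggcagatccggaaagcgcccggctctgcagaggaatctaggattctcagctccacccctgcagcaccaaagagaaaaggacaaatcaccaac
Grpr: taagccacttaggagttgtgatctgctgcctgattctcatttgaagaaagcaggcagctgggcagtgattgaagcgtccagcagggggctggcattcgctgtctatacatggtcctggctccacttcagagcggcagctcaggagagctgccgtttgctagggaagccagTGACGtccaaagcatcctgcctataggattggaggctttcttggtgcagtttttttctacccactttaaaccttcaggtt
Mtnr1a: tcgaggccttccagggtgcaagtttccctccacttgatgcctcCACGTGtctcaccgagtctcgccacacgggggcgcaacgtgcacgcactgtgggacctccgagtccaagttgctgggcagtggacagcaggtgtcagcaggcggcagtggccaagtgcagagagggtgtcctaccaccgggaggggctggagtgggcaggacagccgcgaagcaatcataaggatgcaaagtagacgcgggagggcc
Fos: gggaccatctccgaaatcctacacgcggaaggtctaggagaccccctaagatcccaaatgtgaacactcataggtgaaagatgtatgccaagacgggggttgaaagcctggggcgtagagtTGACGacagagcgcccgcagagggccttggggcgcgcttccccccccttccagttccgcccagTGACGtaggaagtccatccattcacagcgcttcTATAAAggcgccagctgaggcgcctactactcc

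Avpr1a had a core element from -165 to -161 and a TATA box from -137 to -132, Grpr had a core element from -80 to -76, and Mtnr1a had an E-box from -207 to -202, counted from the base at the start. Fos had core elements from -129 to -125 and from -66 to -62 and a TATA box from -33 to -28. The full palindrome TGACGTCA, which holds that core on both strands, was in none of these 4 windows. Among 32851 promoter windows of the same length, 17.8% held the core element, 6.02% the E-box, 12.4% the TATA box and 1.55% the full palindrome. Windows were found for all 9 receptors, and of the other 6 those of Vipr1 and Htr7 held a core element, each on the opposite strand. The windows of Vipr2, Adcyap1r1, Prokr2, Htr7 and Npy1r overlap another stretch of the annotated gene and are not printed. A match describes these letters in the window and not a bound site.

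None of the receptors passed the test between light pulse and sham light pulse. Over the kept probe sets limma called 0 of the 5 receptor probe sets at an adjusted p under 0.05, where it called 0.0677% of all kept probe sets. None of the 5 had an unadjusted p under 0.05 with limma, where 4.31% of all kept probe sets did, or with Cyber-T, the Bayesian test of the study's methods. On all 5 the groups overlapped, where 10.1% of the kept probe sets had groups that did not overlap. The log2 fold change lay under 0 for 4 of the 5 and above 0 for 1, where 50.1% of all kept probe sets lay above 0. The 1 above 0 was a probe set of Avpr1a, whose other probe set lay under 0. The median of the 5 was -0.37, beside a median of 0.00 for all kept probe sets. The same arrays recorded a large response, with log2 fold changes of 4.94 for Fos and 4.84 for Egr1 (standard errors, SE, 0.31 and 0.32, each with an adjusted p of 3.35e-06 from limma). Per1, also plotted as a light-induced reference gene, had 0.86 (SE 0.41, adjusted p = 0.960 from limma) and was not called. Every Per1 light pool nevertheless lay above every sham pool, a separation to be read beside the 10.1% above. The study's qPCR also detected no significant Per1 difference at this time, but a significant increase in tissue taken later.

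**Figure D2:**
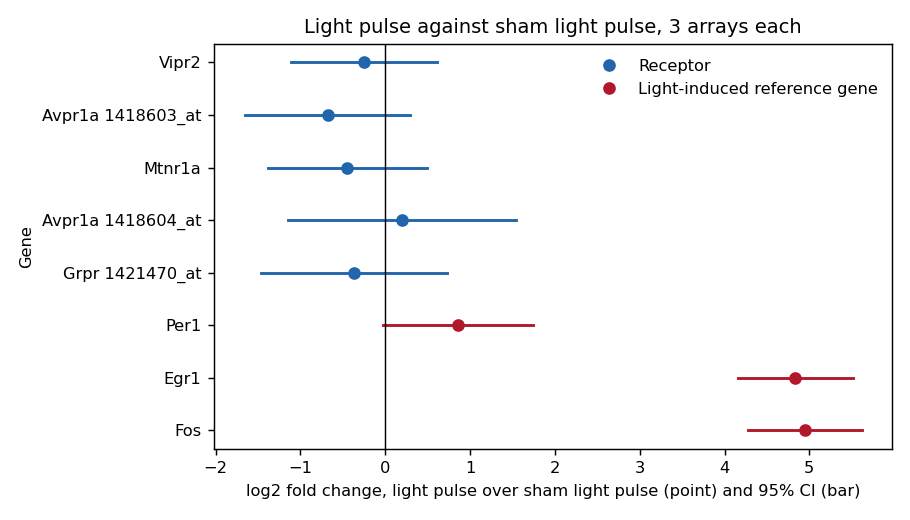
log2 fold change of light pulse over sham light pulse (points) with its 95% confidence interval (bars) from limma for the 5 kept receptor probe sets and for Per1, Egr1 and Fos, 3 arrays per group. All 5 receptor intervals span 0, as does that of Per1 at 0.86, whereas Fos lies at 4.94 and Egr1 at 4.84.

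Vipr2 encodes the VIP receptor that predominates in the SCN. Its signals were 251.1, 607.8 and 450.7 in the sham pools and 518.3, 308.4 and 257.5 in the light pools. All 6 lay above the floor, and on each array they exceeded 68.6% to 81.2% of the probe sets. The highest signal was on sham light pulse replicate 2 and the next on light pulse replicate 1, so that the groups interleaved. The group means were 436.5 ± 178.8 and 361.4 ± 138.2 (SD, n = 3 arrays each). The log2 fold change was -0.25 (SE 0.40), with a 95% interval that corresponds to 0.464-fold to 1.53-fold and an adjusted p of 0.970 from limma. Without sham light pulse replicate 2 it was 0.04.

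Avpr1a encodes the vasopressin receptor that couples through Gq to phospholipase C, and it was read by 2 probe sets designed on the same mRNA record. The one with the higher signal (1418603_at) gave 309.0, 552.3 and 421.5 in the sham pools and 540.8, 217.1 and 148.7 in the light pools. Of its light pulse signals 1 lay near the top of the sham range and the other 2 under its lowest value. The difference was -0.68 on the log2 scale (SE 0.45, adjusted p = 0.960 from limma), and the interval ran from 0.317-fold to 1.23-fold. Without light pulse replicate 1 it was -1.21 (unadjusted p = 0.0131, adjusted p = 0.912 from limma).

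The second Avpr1a probe set (1418604_at) was at 104.2, 243.8 and 89.3 in the sham pools and 213.3, 231.8 and 68.7 in the light pools, at or above the floor on 3 arrays. Its log2 fold change of 0.19 (SE 0.63, adjusted p = 0.987 from limma) had the opposite sign to that of the first, and the interval ran from 0.450-fold to 2.91-fold. Both probe sets were high on sham light pulse replicate 2 and light pulse replicate 1 and lowest on light pulse replicate 3. They parted on light pulse replicate 2, where the first had its second lowest signal and the second its second highest. The difference between the 2 probe sets was not tested.

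Mtnr1a encodes a melatonin receptor, and melatonin itself was not measured in these mice. Its signals of 182.1, 187.6 and 316.7 in the sham pools and 213.3, 143.3 and 139.7 in the light pools all lay above the floor. The highest was on sham light pulse replicate 3, and 2 of the light pulse arrays lay under all sham arrays while the remaining one lay within them. The means were 228.8 ± 76.2 and 165.4 ± 41.5 (SD, n = 3 each), and the log2 fold change was -0.45 (SE 0.44, adjusted p = 0.960 from limma), with an interval from 0.382-fold to 1.41-fold.

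Grpr encodes the receptor for gastrin-releasing peptide, a peptide of the retinorecipient SCN. The kept Grpr probe set (1421470_at) had signals of 124.3, 217.1 and 144.3 in the sham pools and 111.4, 131.2 and 123.2 in the light pools. Of these 6, 5 reached the floor, by a narrow margin on most arrays, and sham light pulse replicate 2 stood above the rest. The difference was -0.37 on the log2 scale (SE 0.51, adjusted p = 0.967 from limma), with an interval from 0.361-fold to 1.65-fold, and without sham light pulse replicate 2 it was -0.14. The other Grpr probe set, built on the same mRNA record, stayed between 20.9 and 48.5 and was not kept.

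The probe sets that were not kept gave 42 signals, of which 3 reached the floor, all of Adcyap1r1. Adcyap1r1 encodes the PACAP receptor on the retinal input pathway. One of its probe sets (1450799_at) had signals of 119.3, 99.5 and 118.1 in the sham pools and 131.6, 79.8 and 38.0 in the light pools. With a third-ranked signal of 118.1 it lay just outside the filter at 118.2, and Grpr at 131.2 was the receptor probe set just inside. The other Adcyap1r1 probe set read 81.4, 61.1 and 25.0 in the sham pools and 70.7, 127.0 and 79.1 in the light pools. In the fit of all probe sets the log2 fold changes of the 2 were -0.60 (SE 0.71) and 0.84 (SE 0.83), of opposite sign and each with an adjusted p of 0.963 from limma.

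Htr7 encodes a serotonin receptor that couples to adenylate cyclase. Its signals were 11.4, 29.1 and 2.1 in the sham pools and 64.2, 32.6 and 37.0 in the light pools. The lowest of the light pools exceeded the highest of the sham pools, but every one of the 6 signals lay under the floor. A separation in this direction occurred in 6.68% of all 22626 probe sets, and Htr7 was 1 of the 12 receptor probe sets. The log2 fold change in the fit of all probe sets was 2.27 (SE 1.25, adjusted p = 0.963 from limma), and at these signals no change in the transcript is read from it.

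Npy1r, a neuropeptide Y receptor gene, and Vipr1, the second VIP receptor gene, stayed under the floor on every array. The Npy1r probe sets ranged from 3.9 to 110.8 (1421471_at) and from 35.8 to 83.8 (1426054_at). Vipr1 ranged from 1.9 to 31.7, with a median of 9.8. Their log2 fold changes in the fit of all probe sets were 0.53, 0.39 and 1.04, with SE of 1.40, 0.86 and 1.21. At this level the transcripts were not detectable by the floor used here, which does not show that they were absent.

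Pools of the same group varied widely. For each of the 5 kept probe sets the difference between groups was smaller than the larger of its group SDs of log2 signals, which ran from 0.42 to 0.98. Sham light pulse replicate 2 held the highest signal for 4 of the 5 kept probe sets, namely Vipr2, Grpr and both of Avpr1a, while it was the highest array for 18.5% of all kept probe sets. Light pulse replicate 3 held the lowest signal for 3 of the 5, both of Avpr1a and Mtnr1a, and was the lowest array for 18.3% of all kept probe sets. That array also stood apart in the choroid plexus marker Ttr, with a signal of 110323 against 63.0 to 295.6 on the others. Without it the log2 fold changes were -0.04 for Vipr2, -0.28 and 0.76 for Avpr1a, -0.34 for Mtnr1a and -0.38 for Grpr. The part of choroid plexus RNA in the receptor signals was not tested.

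**Figure D3:**
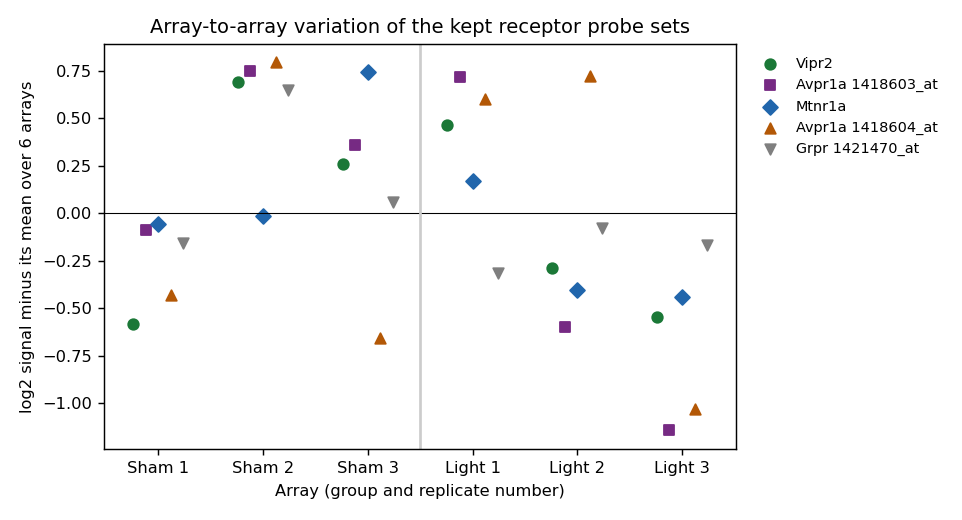
log2 signal of the 5 kept receptor probe sets minus the mean of each over the 6 arrays, by array, with 1 symbol per probe set. Sham light pulse replicate 2 holds the highest point of 4 of the 5 probe sets, and light pulse replicate 3 the lowest of 3.

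Other genes followed these receptors closely over the 6 arrays. Likeness was measured as the root mean square difference of log2 signals, each centred on its own mean, among 6738 other kept genes. For Vipr2 the closest were Mtch2 (0.107), a mitochondrial outer membrane protein gene, and Mfhas1 (0.114). Avpr1a was closest to Fkbp7 (0.117) and Fam118a (0.154) by its first probe set and to Pde7b (0.276), a cAMP phosphodiesterase gene, and Tgfbr2 (0.286) by its second. For Grpr they were Xpot (0.0738) and Ostc (0.0932), and for Mtnr1a Tcta (0.0683) and Mrpl17 (0.0863). With 6 arrays and so many genes, close matches describe these pools and carry no test.

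The peptides that these receptors read were measured on the same arrays. Of 7 ligand genes 4 were kept, and none was called. All 4 log2 fold changes lay above 0 (median 0.44), where 50.1% of all kept probe sets did. Vip, the ligand of Vipr2, had 0.43 (SE 0.19, adjusted p = 0.960 from limma) and Grp, the ligand of Grpr, 0.17 (SE 0.20). Avp, read by Avpr1a, had 0.61 (SE 0.38) and Prok2, the ligand of the unmeasured Prokr2, 0.44 (SE 0.47). The signals of Vip ran from 30271 to 64589 and those of Grp from 5949 to 7297, and for both genes every light pool lay above every sham pool, where 10.1% of the kept probe sets had groups that did not overlap in either direction. At an unadjusted p under 0.05 limma gave 1 of the 4, Vip, beside 4.31% of all kept probe sets. Adcyap1, which encodes PACAP, was not kept and reached the floor only on light pulse replicate 3, at 330.1.

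Among 29 related receptors of the same families (serotonin, neuropeptide Y, vasopressin and oxytocin, prokineticin, bombesin and class B peptide receptors) 3 were kept and none was called, also at an unadjusted p under 0.05, and the median log2 fold change was 0.08. Signals of Npy5r, a neuropeptide Y receptor gene, ranged from 616.6 to 1174, and its log2 fold change was -0.11 (SE 0.31). For Calcr, the calcitonin receptor gene, the signals ranged from 170.5 to 404.8 and the log2 fold change was 0.08 (SE 0.42). Htr1b was the third, at 0.62 (SE 0.67). Thus Npy5r passed the filter where Npy1r did not. Of 22 other G protein-coupled receptors 3 were kept and none was called, with 0 at an unadjusted p under 0.05 and a median log2 fold change of -0.10. Gabbr1, a subunit of the GABA-B receptor, had 0.15 (SE 0.24) and Ntsr2, a neurotensin receptor gene, -0.10 (SE 0.29).

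Genes of proteins through which receptors act inside the cell were also measured. Of 17 genes for G protein α subunits, receptor kinases, arrestins and receptor accessory proteins, 12 were kept, where 6739 of all 12393 genes were. None of the 12 was called, with 7 of their log2 fold changes above 0 and a median of 0.11, where 50.1% of all kept probe sets lay above 0. Gnas, which encodes the stimulatory α subunit used by the VIP, PACAP and Htr7 receptors, had signals of 11334, 12973 and 14841 in the sham pools and 9349, 9136 and 9235 in the light pools. All light pulse signals of Gnas lay under all sham signals, where 10.1% of the kept probe sets had groups that did not overlap. The log2 fold change was -0.49 (SE 0.19), with an unadjusted p of 0.0246 that did not pass adjustment (adjusted p = 0.960 from limma). At an unadjusted p under 0.05 limma gave 1 of the 12, Gnas, beside 4.31% of all kept probe sets. Gnai1, an inhibitory α subunit of the kind used by melatonin and neuropeptide Y receptors, had -0.18 (SE 0.20). Gnaq, the α subunit of the kind used by Avpr1a and Grpr, was not kept, whereas its relative Gna11 was, at 0.22 (SE 0.29).

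Markers of other cells were read as a check on the captured tissue. Summed over 7 markers of neighbouring hypothalamic neurons, the signal ran from 1333 to 1902 after the sham light pulse and from 1308 to 1469 after the light pulse, the brightest being Pomc and Oxt. Summed astrocyte markers (7, led by Gja1 and Aqp4) ran from 21556 to 30045 and from 22820 to 29734. Oligodendrocyte markers (6, led by Mbp and Cnp), endothelial markers (7, led by Slc2a1 and Slco1a4) and microglial markers (7, led by Csf1r and C1qb) also overlapped between the groups. No gene of these 5 lists was called, and at an unadjusted p under 0.05 limma gave 2 of the 23 kept, Pomc and Flt1, both with a log2 fold change under 0 (-1.09 and -1.55), beside 4.31% of all kept probe sets. Choroid plexus and ependyma markers (4, led by Ttr) summed to 127.7 to 375.0 on the other 5 arrays. On light pulse replicate 3 they summed to 110593, of which Ttr made up 110323. Folr1, the next of them, reached 147.3 there, and Kl was also highest there, at 72.7 and under the floor. Foxj1 went the other way, highest on sham light pulse replicate 1 at 73.4, with 50 on light pulse replicate 3.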

How the data were processed

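Each array, an Affymetrix Mouse 430A 2.0, received RNA of 3 mice after 2 rounds of amplification. The deposited values are signal intensities that the authors made with MAS5, linear and scaled per array; present calls and array images were not used here. Groups and replicate numbers came from the sample labels. Probe sets were named through the platform annotation: 20380 had 1 symbol, 691 several and 1555 none.

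The log2 of the signal was taken with no offset and compared with limma 3.58.1 in R 4.3.3 (two-sided, with an intensity trend, adjusted by Benjamini-Hochberg at a threshold of 0.05) over the 10340 probe sets with the highest third-ranked signal, the number the study kept by present calls. Probe sets outside this filter have values from a fit of all 22626. Arrays give no counts, and 3 per group limit the precision. Each gene of a list was represented by 1 probe set, that with the highest mean log2 signal among its kept ones. Genes with none kept were represented by their brightest probe set, and other probe sets were not counted. Of each list the 2 genes with the highest mean signal were named, since none was called. Further ligands, Htr1b, Gnaq, Gna11, Folr1, Kl and Foxj1 were named after their values were seen. The receptors and the lists were chosen with earlier results of these data known. Trimmed mean signals ran from 492.3 to 495.6 and median correlations with other arrays from 0.898 to 0.922. The alternatives were quantile normalization, scaling to a common 75th percentile, adding 50 before the log2, no filter, 5000 probe sets, no intensity trend, Cyber-T (rewritten, window 101, prior weight 10), the replicate number as a block and omitting each array. Both tests were checked on simulated data.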

Additional observations from a re-analysis of the deposited data

How the results depend on the processing

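No receptor probe set was called under the main setting or any of the 13 alternatives that tested them. With these and that of the 5000 brightest probe sets, the count of all called probe sets ran from 4 to 8, and the lowest adjusted p of a kept receptor probe set was 0.893. Among the 5000 brightest no receptor was left to test. With that stricter floor (497.6) the receptor genes above it numbered 0 in place of 4. With the floor required on all 6 arrays, or set at 159.8, there were 3. Of the 22 ligand, receptor and G protein genes kept, none was called under the same 13 alternatives, nor were the 13 genes that remained among the 5000 brightest.

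Directions of single receptors were less stable. Quantile normalization turned the second Avpr1a probe set to -0.0065, and the other settings that kept all arrays turned none of the 12. With each array left out the log2 fold change ran from -0.60 to 0.038 for Vipr2, from -1.21 to -0.28 and from -0.12 to 0.76 for the Avpr1a probe sets, from -0.54 to -0.14 for Grpr (-0.062 to 0.52 for its second probe set), from -0.64 to -0.19 for Mtnr1a, and from -0.61 to 1.84 for Npy1r (1421471_at). The second Avpr1a probe set turned to -0.08 without sham light pulse replicate 3, to -0.06 without light pulse replicate 1 and to -0.12 without light pulse replicate 2. The second Grpr probe set turned to -0.062 without sham light pulse replicate 1, Vipr2 to 0.038 without sham light pulse replicate 2, and Npy1r to -0.61 without sham light pulse replicate 2 and -0.49 without light pulse replicate 1. The causes were not tested.

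Same-numbered arrays had correlations of their deviations from the group means of 0.10, -0.19 and -0.13 across probe sets. The highest were between unlike numbers, 0.203 for sham 2 with light 3 and 0.196 for sham 3 with light 2. What these correlations reflect was not tested. With the replicate block 0 receptor probe sets and 6 probe sets in all were called. Signal near the floor and 3 arrays per group limit what could be seen: the narrowest receptor interval, that of Vipr2, still spans 0.464-fold to 1.53-fold.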
